A study of Mus musculus with 4 samples.

Results

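The genes described here are 10 genes used as readouts of the epithelial to mesenchymal transition (EMT) in mouse cells: Cdh1, Epcam, Cdh2, Vim, Fn1, Snai1, Snai2, Twist1, Zeb1 and Zeb2. They were picked by name, as the rows of the deposited expression table that carry those symbols, and all 10 were among its 25965 listed genes. Expression was measured by RNA-seq in mouse embryonic stem cells (mESCs) that are female and F1 between FVB and CAST, with 1 library for each of 4 groups. Day 0 cells were undifferentiated and were grown in 2i, a medium with inhibitors of MEK and GSK3 that holds mESCs in a naive state. The other 3 libraries were from day 6, after cells had been moved stepwise into DME HiHi, a serum medium without LIF, for a differentiation that was not directed to any lineage. These cells had been transduced with a retroviral short hairpin on day 2 and placed under puromycin on day 3. The hairpin was non-silencing (Nons) in the control and targeted Smarca4, the ATPase of the nucleosome-remodelling BAF complex, in Smarca4.4 and Smarca4.6. The study made these libraries to follow X inactivation in cells depleted of Smarca4. Here they were used to ask how EMT genes differed between day 0 and day 6, and between control and knockdown at day 6.

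Groups were taken from the sample titles, since a genotype field in the labels calls every day 6 library, Nons included, a Smarcc knockdown. Smarca4 itself had a log2 CPM (reads of a gene scaled to the library total, on a log2 scale) of 7.93 on day 0. At day 6 it was at 7.84 with Nons, 7.04 with Smarca4.4 and 7.44 with Smarca4.6, lower in both libraries titled as its knockdown. Its RNA was reduced only in part, to 0.573 of Nons with Smarca4.4 and 0.758 with Smarca4.6, the weaker knockdown. The cells are labelled female, yet reads of the Y-linked gene Ddx3y numbered 0 at day 0 and 83, 96 and 107 for Nons and the hairpins Smarca4.4 and Smarca4.6, and 2 further Y-linked genes also went from 0 reads to 10, 33 and 38 (Uty) and to 13, 27 and 20 (Eif2s3y) in that order, while Kdm5d had 0 reads in each. Their part in the results was not tested, and no day 6 library was free of reads of these 3 genes. The same field calls day 0 a nonsilencing control, although by the stated protocol day 0 came before any virus or puromycin, so differentiation, medium, transduction and selection cannot be told apart in a comparison of day 0 with Nons. Total reads ran from 18599402 at day 0 to 47143727 in Smarca4.4, and 3 reads, the smallest level taken as measurable, were 0.161 CPM at day 0 and 0.0636 to 0.0822 CPM at day 6. With 1 library per group there is no replicate check and no test, and each difference compares 2 libraries. Values in brackets after a difference are its exact (Clopper-Pearson) 95% interval, which covers counting error only. In bulk RNA, fewer cells of a type and less RNA per cell cannot be told apart.

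In an epithelium, cells are held side by side by E-cadherin, the product of Cdh1, whose tail is tied to the actin cytoskeleton through catenins. During EMT, which occurs at gastrulation, in the neural crest and in wound repair, transcription factors of the SNAIL, TWIST and ZEB families repress Cdh1 and other epithelial genes, and cells commonly gain N-cadherin (Cdh2), the intermediate filament vimentin (Vim) and the matrix protein fibronectin (Fn1). Naive mESCs express E-cadherin, which holds their colonies together.

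Both epithelial adhesion genes were higher at day 6 than at day 0, and stayed within a narrow band across the 3 day 6 libraries. Cdh1 (chromosome 8, 106603351 to 106670246 in mm10, plus strand) had a log2 CPM of 8.29 on day 0 and, at day 6, 9.93 with Nons, 9.94 with Smarca4.4 and 9.91 with Smarca4.6. It was 3.13-fold higher in Nons than at day 0, a log2 difference of 1.65 [1.61 to 1.69]. Day 0 was the low library and the 3 others lay close together. Against Nons, the log2 difference of Cdh1 was 0.0089 [-0.010 to 0.028] with Smarca4.4 and -0.02 [-0.040 to 0.0007] with Smarca4.6, and both intervals held 0. Behind these values are 5817 reads at day 0 and 35228 or more in each day 6 library. Counting error alone is thus a few hundredths of a log2 unit, and the spread between cultures was not measured. Centred on the median difference of genes with a mean log2 CPM of at least 0, Cdh1 in Smarca4.6 was at -0.083, outside its counting interval. Epcam encodes a surface glycoprotein of epithelia and of pluripotent cells that takes part in cell adhesion. Epcam (chromosome 17, 87635979 to 87651106, plus strand) had a log2 CPM of 5.97 on day 0 and, at day 6, 8.19 with Nons, 8.07 with Smarca4.4 and 7.96 with Smarca4.6. Its level in Nons was 4.64-fold that of day 0, a log2 difference of 2.21 [2.13 to 2.30]. Both hairpin libraries were slightly below Nons, by a log2 difference of -0.12 [-0.15 to -0.08] with Smarca4.4 and -0.23 [-0.27 to -0.19] with Smarca4.6. The order of Epcam was thus day 0, Smarca4.6, Smarca4.4 and Nons, with each neighbour apart by more than counting error.

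SNAIL and ZEB proteins bind the E-box, a short motif with the letters CACCTG, or CAGGTG when read from the other strand, and the sequence upstream of the members' start sites was searched for it. RefSeq promoter sequence on GRCm38.p6 was matched for 5 of the members (Vim, Zeb2, Snai1, Twist1 and Epcam). Within the 250 bases before the start, Epcam held 2 E-boxes and Snai1 held 1. The letters were not present in the windows of Vim and Twist1 or in any of the 4 windows of Zeb2. The starts are those of the promoter set. The Vim window (chr2:13574061-13574310) and some Zeb2 windows, such as chr2:45110278-45110527, thus lie inside the gene spans given below. The windows of Epcam and Snai1 are shown because they are the members' windows with the motif. They are in plus-strand sequence from 5′ to 3′ with the E-boxes in capitals. The Epcam window is chr17:87635729-87635978 and the Snai1 window is chr2:167537945-167538194.
Epcam: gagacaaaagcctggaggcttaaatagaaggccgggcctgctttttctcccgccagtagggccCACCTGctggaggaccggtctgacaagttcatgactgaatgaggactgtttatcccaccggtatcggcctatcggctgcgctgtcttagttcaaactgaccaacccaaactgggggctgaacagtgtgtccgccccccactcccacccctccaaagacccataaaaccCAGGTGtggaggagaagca
Snai1: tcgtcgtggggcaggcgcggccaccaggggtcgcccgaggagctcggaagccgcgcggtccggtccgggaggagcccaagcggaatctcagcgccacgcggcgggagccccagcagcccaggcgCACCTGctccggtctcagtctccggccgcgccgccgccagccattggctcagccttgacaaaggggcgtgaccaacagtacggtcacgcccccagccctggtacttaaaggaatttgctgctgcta
The first E-box of Epcam begins 187 bases before the start and the second 19 bases before it, and that of Snai1 begins 126 bases before it. Of 32851 such windows over the genome, 17.2% held at least 1 of these E-boxes and 2.06% held at least 2. A match of letters is not a measured binding site.

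**Figure D1:**
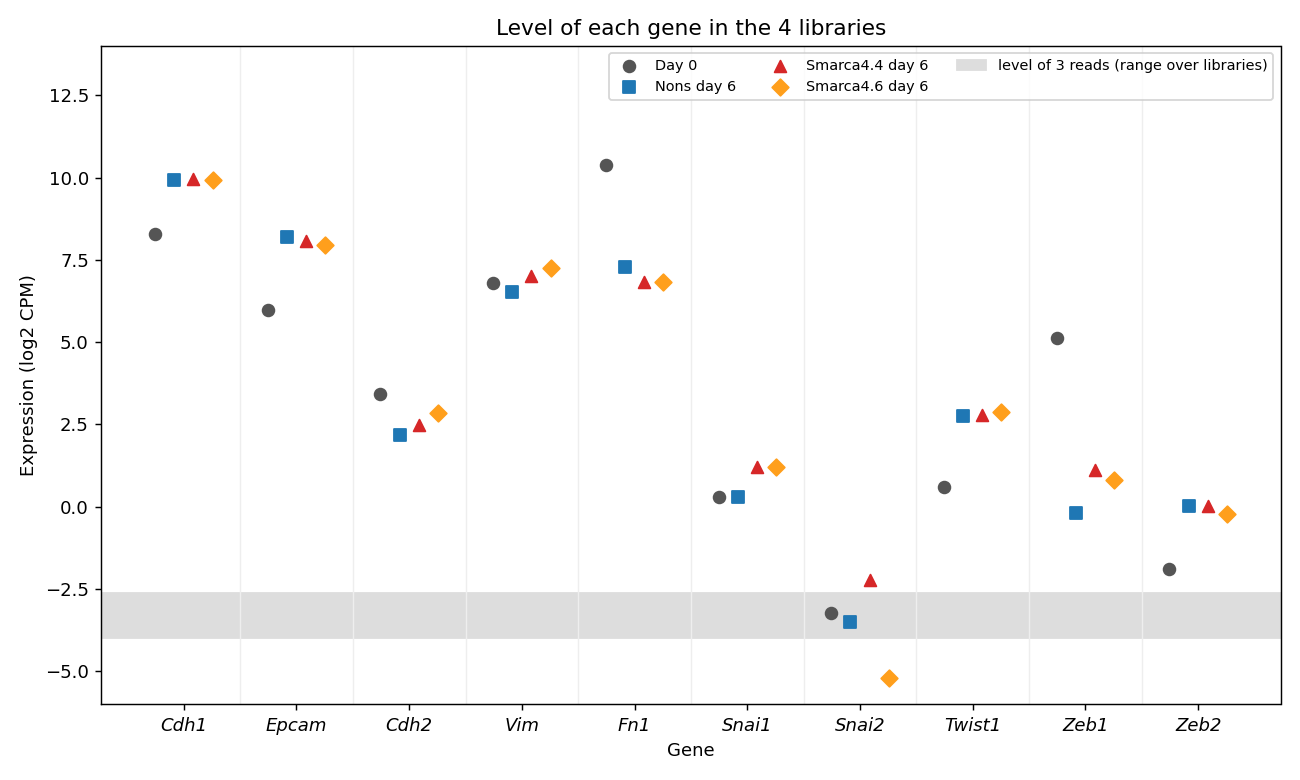
Expression (log2 CPM, vertical axis) of each of the 10 genes (horizontal axis) in the day 0, Nons, Smarca4.4 and Smarca4.6 libraries, 1 point per library. The grey band is the level of 3 reads. The day 0 point stands apart for Cdh1, Epcam, Fn1, Twist1 and Zeb1, while the 3 day 6 points of Cdh1 run from 9.91 to 9.94, and Snai2 lies in or near the band.

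The products that mark mesenchymal cells did not move as one group between day 0 and day 6. Fn1 and Cdh2 were lower in Nons than at day 0, and Vim differed little. Fn1 encodes fibronectin, which cells bind through integrins. Fn1 (chromosome 1, 71585523 to 71653171, minus strand) had a log2 CPM of 10.39 on day 0 and, at day 6, 7.29 with Nons, 6.82 with Smarca4.4 and 6.83 with Smarca4.6. Nons was 8.57-fold below day 0, a log2 difference of -3.10 [-3.14 to -3.06], so that the undifferentiated cells had the most Fn1 RNA of the 4 libraries. Both hairpin libraries were further below Nons, by -0.48 [-0.53 to -0.42] with Smarca4.4 and -0.47 [-0.52 to -0.41] with Smarca4.6, and the interval between them held 0 (0.010 [-0.049 to 0.068]). The listed span of Fn1 overlaps that of Apol7d, on the other strand, by 335 bases, and whether exons overlap was not examined. Apol7d was at 4.86 log2 CPM on day 0 and at 1.98, 1.70 and 1.45 for Nons and the hairpins Smarca4.4 and Smarca4.6. The strand setting of the counting was not stated, so any shared reads of this pair are uncertain. At day 0, Apol7d had 540 reads against 24950 for Fn1.

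Vim (chromosome 2, 13573927 to 13582826, plus strand) encodes the intermediate filament protein of mesenchymal cells, which many cultured cells also express. Its log2 CPM was 6.79 on day 0 and, at day 6, 6.51 with Nons, 7.01 with Smarca4.4 and 7.25 with Smarca4.6. Nons was the low library for Vim and Smarca4.6 the high one. From day 0 to Nons the log2 difference was -0.28 [-0.35 to -0.20], whereas against Nons it was 0.49 [0.43 to 0.55] with Smarca4.4 and 0.74 [0.68 to 0.79] with Smarca4.6. Relative to day 0, Vim was thus higher in both hairpin libraries, by 0.21 [0.14 to 0.29] and 0.46 [0.38 to 0.53]. Of the 13264 genes kept, those with a mean log2 CPM of at least 0, 5.90% were higher than Nons by as much as Vim in Smarca4.4 and 2.89% in Smarca4.6. Differences of this size were therefore present in many other genes.

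Cdh2 (chromosome 18, 16588877 to 16809246, minus strand) encodes N-cadherin, which often replaces E-cadherin in neural and mesodermal cells. Its log2 CPM was 3.42 on day 0 and, at day 6, 2.17 with Nons, 2.49 with Smarca4.4 and 2.86 with Smarca4.6, from 199, 206, 264 and 265 reads. The day 0 library was highest and Nons lowest, a log2 difference of -1.25 [-1.54 to -0.96] in Nons. Against Nons, Cdh2 was higher by 0.31 [0.05 to 0.58] with Smarca4.4 and by 0.69 [0.42 to 0.96] with Smarca4.6, both under 2-fold, and the Smarca4.6 library exceeded Smarca4.4 by 0.37 [0.12 to 0.63]. Both stayed below day 0, with differences of -0.93 [-1.20 to -0.66] and -0.56 [-0.83 to -0.29]. An annotated antisense gene that overlaps Cdh2, Gm15485, had 0 reads in each library.

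A cadherin switch is often given as the level of N-cadherin against that of E-cadherin, a ratio that does not depend on how a library was scaled. The log2 ratio of Cdh2 to Cdh1 CPM was -4.87 [-5.08 to -4.67] at day 0, -7.76 [-7.97 to -7.57] in Nons, -7.46 [-7.64 to -7.28] with Smarca4.4 and -7.05 [-7.23 to -6.88] with Smarca4.6. Per kb of exon, Cdh1 exceeded Cdh2 32.7-fold at day 0 and 243-fold in Nons, 197-fold in Smarca4.4 and 149-fold in Smarca4.6. The balance at day 6 lay further towards E-cadherin than at day 0 in all 3 libraries. Among them, the Smarca4.6 ratio was highest and its interval did not meet those of the other two. The ratio of Smarca4.4 lay above that of Nons through Cdh2, whose own difference was 0.31 [0.05 to 0.58] against 0.0089 [-0.010 to 0.028] for Cdh1. Among the other classical cadherins, Cdh3, which encodes the P-cadherin of epithelia, was at 0.846 CPM per kb at day 0 and at 5.91, 4.24 and 4.01 CPM per kb for Nons and the hairpins Smarca4.4 and Smarca4.6. Cdh4, which encodes the R-cadherin of neural tissue, was at 2.00 CPM per kb at day 0 and at 0.585, 0.921 and 0.915 CPM per kb in the same order. Cdh15, which encodes the M-cadherin of muscle, was the third of 7 listed that passed the filter, and it was higher in Nons than at day 0 by 2.37 [1.34 to 3.62], with 8 reads at day 0 and 102 in Nons. Below the filter, Cdh8 and the mesenchymal Cdh11 had 0 reads at day 0 and 30 and 20 in Nons, at least 2.02 and 1.44 higher on the log2 scale when day 0 is set to 3 reads. Higher levels at day 6 were thus not limited to epithelial cadherins.

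**Figure D2:**
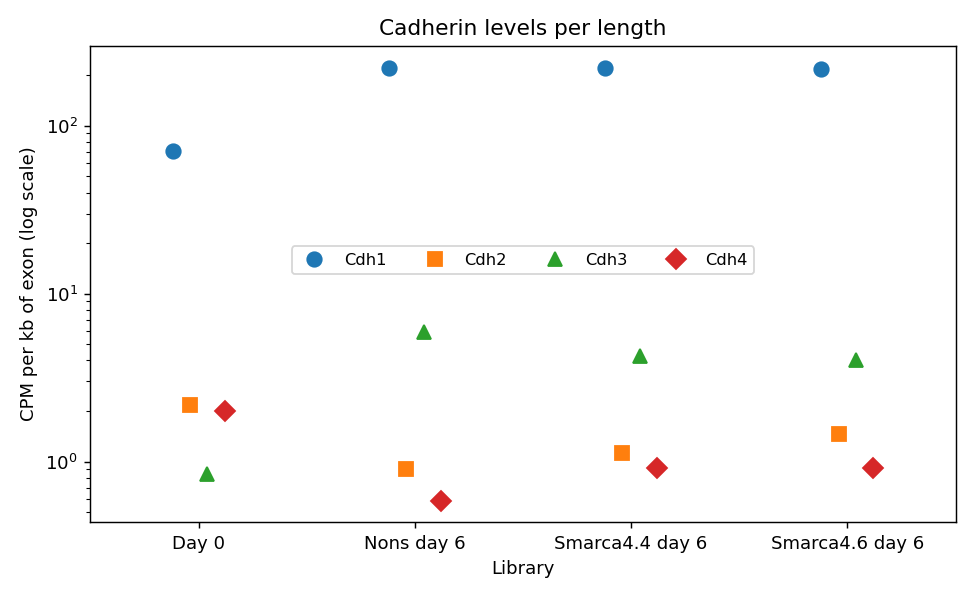
Level per length (CPM per kb of exon, log axis) of Cdh1, Cdh2, Cdh3 and Cdh4 in each library, 1 point per gene and library. Cdh1 is highest throughout, at 70.6 at day 0 and at 218 to 222 at day 6, while Cdh2 lies below Cdh3 at day 6, at 0.909 to 1.47 against 4.01 to 5.91.

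The EMT transcription factors were at low levels in these cells, with the exception of Zeb1 at day 0. Zeb1 (chromosome 18, 5591860 to 5775467, plus strand) encodes a zinc-finger repressor of Cdh1 that is held down in epithelia by microRNAs of the miR-200 family. Its log2 CPM was 5.13 on day 0 and, at day 6, -0.19 with Nons, 1.13 with Smarca4.4 and 0.81 with Smarca4.6, from 653, 40, 103 and 64 reads. From day 0 to Nons, Zeb1 was 40.2-fold lower, a log2 difference of -5.33 [-5.83 to -4.87], and 0.309% of the kept genes were lower by as much. No other member differed as far in any comparison. Against Nons, Zeb1 was higher by 1.32 [0.78 to 1.89] with Smarca4.4 and by 1.00 [0.41 to 1.61] with Smarca4.6. These were 2.49-fold and 2.01-fold, and 0.317% and 1.00% of the kept genes were higher by as much. Neither library came near day 0, from which Zeb1 differed by -4.01 [-4.32 to -3.70] with Smarca4.4 and -4.32 [-4.72 to -3.95] with Smarca4.6. The hairpin libraries differed from each other by less than counting error (-0.32 [-0.79 to 0.15] for Smarca4.6 against Smarca4.4). The lower bounds of both intervals against Nons lay under 2-fold, and with a pseudocount of 1 CPM the differences were 0.76 and 0.56. Gm10125, an antisense gene that overlaps Zeb1, had 4 reads at day 0 and 0 in the others.

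Zeb2 (chromosome 2, 44983634 to 45117395, minus strand) encodes the paralogue of Zeb1 and was near the lower end of what could be measured. Its log2 CPM was -1.90 on day 0 and, at day 6, 0.01 with Nons, 0.03 with Smarca4.4 and -0.24 with Smarca4.6, from 5, 46, 48 and 31 reads, and its mean kept it below the filter. Day 0 was the low library, and the log2 difference from day 0 to Nons was 1.90 [0.58 to 3.59], opposite in sign to that of Zeb1. The 3 day 6 libraries differed by less than counting error, with 0.018 [-0.60 to 0.63] with Smarca4.4 and -0.24 [-0.95 to 0.45] with Smarca4.6 against Nons. Its annotated antisense partner, Gm13476, had at most 2 reads in a library.

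Twist1 (chromosome 12, 33957671 to 33959817, plus strand) encodes a basic helix-loop-helix factor of mesoderm and neural crest. It had a log2 CPM of 0.59 on day 0 and, at day 6, 2.75 with Nons, 2.79 with Smarca4.4 and 2.88 with Smarca4.6, from 28, 307, 325 and 269 reads. Nons was 4.46-fold above day 0, a log2 difference of 2.16 [1.60 to 2.77], and the 3 day 6 libraries stood together. Against Nons the difference of Twist1 was 0.039 [-0.19 to 0.27] with Smarca4.4 and 0.14 [-0.11 to 0.38] with Smarca4.6.

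Snai1 (chromosome 2, 167538195 to 167542814, plus strand), whose upstream window with 1 E-box is printed above, encodes the SNAIL repressor that acts early in EMT at gastrulation. Its log2 CPM was 0.31 on day 0 and, at day 6, 0.29 with Nons, 1.22 with Smarca4.4 and 1.22 with Smarca4.6, from 23, 56, 110 and 85 reads. Day 0 and Nons did not differ beyond counting error (-0.015 [-0.74 to 0.75]), and both hairpin libraries lay above them. Against Nons, Snai1 was higher by 0.93 [0.45 to 1.42] with Smarca4.4 and by 0.93 [0.42 to 1.44] with Smarca4.6, each just under 2-fold. Of the kept genes, 1.09% and 1.39% were higher by as much in the respective library.

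Snai2 (chromosome 16, 14705852 to 14709395, plus strand) encodes SLUG, a SNAIL paralogue of the neural crest. It had 2 reads at day 0, 4 in Nons, 10 with Smarca4.4 and 1 with Smarca4.6, or a log2 CPM of -3.22, -3.52, -2.24 and -5.19. Day 0 and Smarca4.6 were under the level of 3 reads. Against Nons the intervals were -0.51 to 3.41 (Smarca4.4) and -7.30 to 1.66 (Smarca4.6), and no difference of Snai2 from Nons was detectable at this depth.

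**Figure D3:**
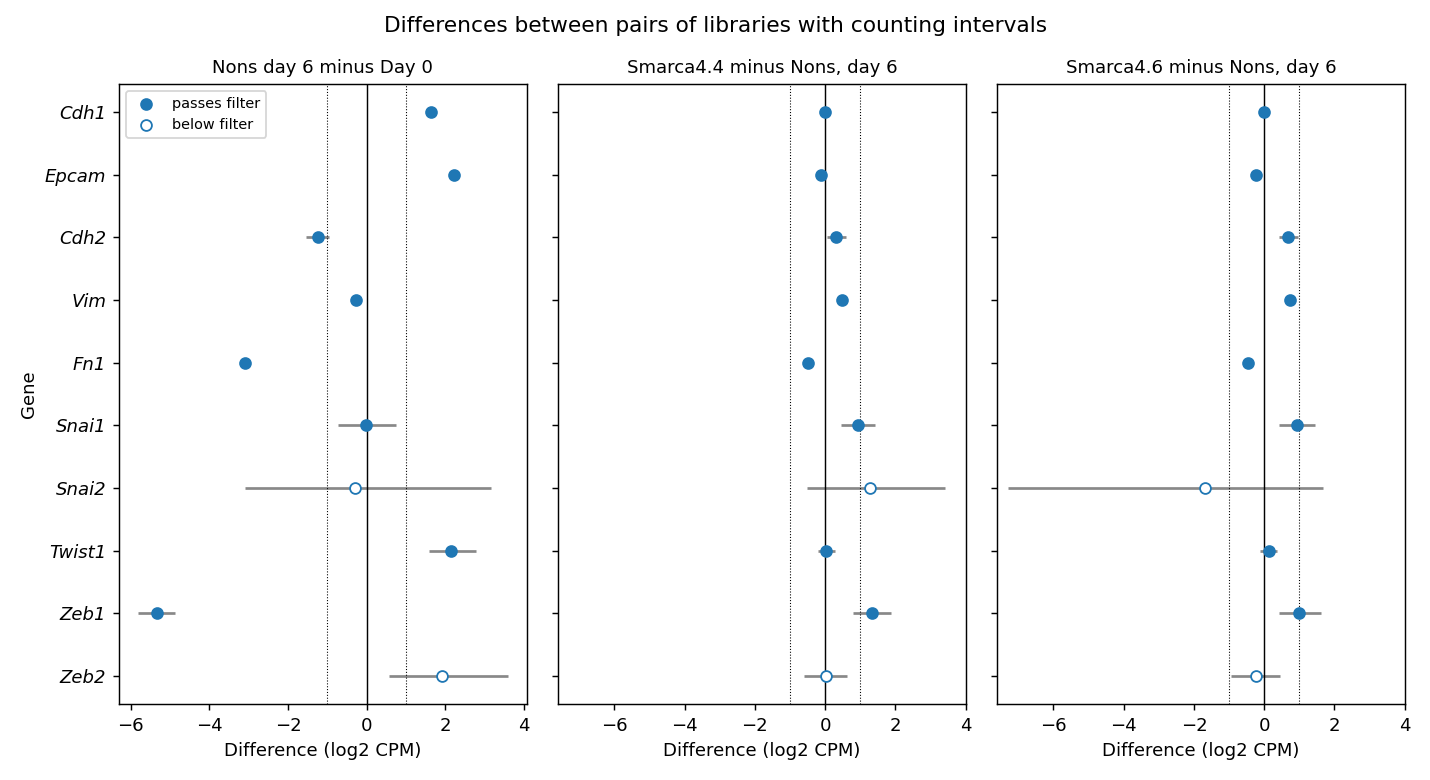
Log2 CPM difference (horizontal axis) of each gene for Nons minus day 0, Smarca4.4 minus Nons and Smarca4.6 minus Nons, with exact 95% counting intervals as bars. Filled points pass the filter, open points (Snai2 and Zeb2) do not, and dotted lines mark 2-fold. Zeb1 lies at -5.33 in the first panel and at 1.32 and 1.00 in the others. Cdh1 sits near 0 in both hairpin panels, and the bars of Snai2 cross 0 in all 3.

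Counted together, 8 of the 10 members passed the filter and 6 of those 8 differed by at least 2-fold between day 0 and Nons. Cdh1, Epcam and Twist1 were higher and Fn1, Zeb1 and Cdh2 lower, while 19.6% of all kept genes were at least 2-fold higher and 12.3% at least 2-fold lower. Each direction held both structural products and a transcription factor, Twist1 among the higher and Zeb1 among the lower, and the median difference of the 8 was -0.15 against 0.031 for all kept genes. Against Nons, 1 of the 8 (Zeb1) was at least 2-fold higher in Smarca4.4 and 0 were lower, where 0.882% of kept genes were higher and 0.309% lower. In Smarca4.6, Zeb1 was again the 1 member at least 2-fold higher and 0 were lower, where 1.03% of kept genes were higher and 0.799% lower. With both hairpins in the same direction, 0.392% of kept genes were at least 2-fold higher and 0.121% lower, and Zeb1 was the only member among them. The median difference of the 8 members from Nons was 0.18 with Smarca4.4 and 0.41 with Smarca4.6, against 0.038 and 0.064 for all kept genes. Both differences were taken from the same Nons library, so any deviation of that library enters both.

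Levels of different genes can be set side by side per length. At day 0, Fn1 was highest at 158 CPM per kb, followed by Cdh1 at 70.6, Vim at 49.98, Epcam at 28.6, Zeb1 at 5.74, Cdh2 at 2.16, Twist1 at 0.925, Snai1 at 0.763, Snai2 at 0.0532 and Zeb2 at 0.0231 CPM per kb. In Nons the order was Cdh1 at 221, Epcam at 133, Vim at 41.2, Fn1 at 18.5, Twist1 at 4.12, Cdh2 at 0.909, Snai1 at 0.755, Zeb1 at 0.143, Zeb2 at 0.0865 and Snai2 at 0.0433 CPM per kb. Fn1 went from first place to a level below Cdh1, Epcam and Vim and Zeb1 from the most abundant of the 5 transcription factors to a level below Twist1 and Snai1. In the hairpin libraries Cdh1, Epcam, Vim and Fn1 kept the order of Nons, with Vim at 57.9 and 68.6 CPM per kb in Smarca4.4 and Smarca4.6. Snai1 was above Cdh2 in Smarca4.4, at 1.44 against 1.13 CPM per kb, and close to it in Smarca4.6, at 1.44 against 1.47 CPM per kb.

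Epithelial structural products were at higher levels at day 6 with 1 exception under 2-fold, whereas epithelial regulators were divided. For every list below, the shares of all kept genes to read beside a count are those above. They were 19.6% higher and 12.3% lower between day 0 and Nons, and about 1% or less in either direction against Nons. At the latter shares a short list would often hold 0. The filter uses the mean of 4 libraries, 3 of them from day 6. A gene high only at day 6 thus passes more readily than one high only at day 0. Counts and medians from day 0 to Nons can lean upward for that reason, in the lists as in all kept genes. Of 24 epithelial products that passed the filter, which include claudins, keratins and desmosome genes, 23 were at least 2-fold higher in Nons than at day 0 and 0 were lower, with a median log2 difference of 3.49 against 0.031 for all kept genes. Krt8, with Krt18 the keratin pair of simple epithelia, had a log2 CPM of 0.91 on day 0 and 9.91 with Nons (interval of the difference 8.52 to 9.52), and Krt18 was higher by 7.90 [7.47 to 8.37]. Against Nons, 0 of the 24 differed by 2-fold in either hairpin library, and their median was -0.010 with Smarca4.4 and -0.12 with Smarca4.6. Cdh1 and Epcam thus had smaller differences between day 0 and Nons than the median of these products. Among 8 epithelial regulators, 3 were at least 2-fold higher in Nons and 4 lower. Esrp1, a splicing factor of epithelia, was higher by 7.24 [6.49 to 8.11], and Grhl2 (2.59 [2.34 to 2.84]) and Ovol2 (2.01 [1.51 to 2.56]), both transcription factors that repress Zeb1, were higher too. Klf4, also a naive pluripotency factor, was lower by a difference of -4.98 [-5.19 to -4.78], as were Grhl3 (-4.45 [-4.72 to -4.20]) and Elf3 (-2.31 [-2.42 to -2.21]). None of the 8 differed from Nons by 2-fold, with medians of 0.24 with Smarca4.4 and 0.15 with Smarca4.6.

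Mesenchymal products other than the members were mostly higher at day 6. Of 16 that passed the filter, out of 22 listed, 10 were at least 2-fold higher in Nons than at day 0 and 2 lower, with a median of 2.25. Tagln, an actin-binding protein of smooth muscle, was higher by 11.14 [10.10 to 12.46], Thbs1, a matrix protein, by 9.55 [8.68 to 10.62], and Acta2, smooth muscle actin, which had 0 reads at day 0, by at least 8.61 on the log2 scale when day 0 is set to 3 reads. Tgfbi (-2.90 [-3.53 to -2.30]) and Pdgfrb (-1.49 [-1.95 to -1.03]) were lower, as Fn1 was. Against Nons, 1 product was at least 2-fold higher and 1 lower in each hairpin library, with medians of 0.011 with Smarca4.4 and -0.088 with Smarca4.6. The lower one was Acta2 in both, at -1.03 [-1.12 to -0.94] and -1.83 [-1.95 to -1.70], opposite in sign to Vim. In Smarca4.6 the higher one was Tgfbi, a matrix protein named for its response to TGF-beta (1.28 [0.63 to 1.95]). Acta2 and Tagln also belong to a list of 6 smooth muscle markers whose summed level was 13.8 CPM on day 0, against 1172, 875 and 748 CPM for Nons and the hairpins Smarca4.4 and Smarca4.6. In that list 5 of 6 passed the filter, all 5 were higher in Nons than at day 0 and all 5 lower with each hairpin, and their part in the mesenchymal values was not tested.

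**Figure D4:**
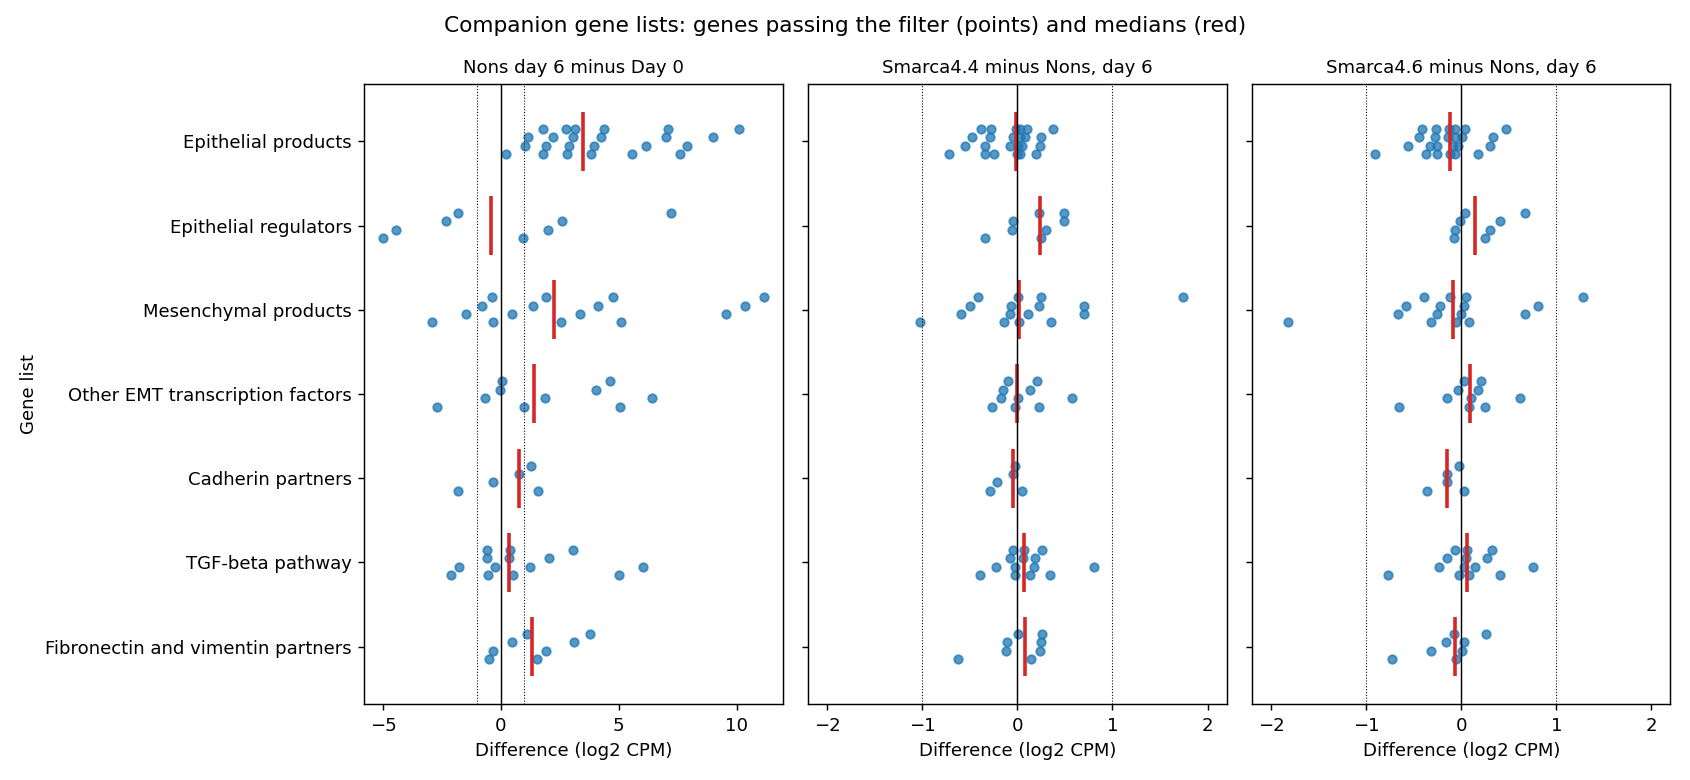
Log2 CPM differences of the genes passing the filter in 7 lists of related genes (points; red bars are list medians), for Nons minus day 0 and for each hairpin minus Nons, the last 2 panels on a narrower horizontal axis. Dotted lines mark 2-fold. Epithelial products have a median of 3.49 in the first panel and of -0.010 and -0.12 in the others.

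Other transcription factors tied to EMT included 10 that passed the filter of 15 listed, and 5 of them were at least 2-fold higher in Nons than at day 0 and 1 lower, with a median of 1.43. The highest differences were in Id1 (6.42 [5.72 to 7.23]) and Id2 (5.05 [4.69 to 5.44]), inhibitors of helix-loop-helix factors such as Twist1, and in Sox4 (4.63 [4.37 to 4.89]). Klf8 was lower, with a difference of -2.70 [-2.82 to -2.59]. In each hairpin library 0 of the 10 were 2-fold away from Nons, where 1.19% and 1.82% of all kept genes were in Smarca4.4 and Smarca4.6. The catenins that tie cadherins to actin differed less: 2 of 5 were at least 2-fold higher and 1 lower in Nons than at day 0. Jup, or plakoglobin, was higher by 1.58 [1.47 to 1.69] and Ctnnd1, or p120 catenin, by 1.29 [1.25 to 1.34], near the 1.65 of Cdh1, while Ctnnd2, the neural delta-catenin, differed by -1.80 [-2.12 to -1.49]. In the hairpin libraries 0 of the 5 were 2-fold away from Nons.

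TGF-beta signalling is a well-known inducer of Snai1, Zeb1 and Fn1. Of 14 ligands, receptors and mediators, all of which passed the filter, 5 were at least 2-fold higher in Nons than at day 0 and 2 lower, the latter near the 12.3% of all kept genes, with a median of 0.37 against 0.031 for all kept genes. All 3 ligand genes were higher, Tgfb1 by 6.05 [3.55 to 11.36] and Tgfb3 by 3.05 [1.43 to 5.36], while Tgfb2 went from a log2 CPM of -1.05 to 3.96 (interval of the difference 4.07 to 6.14). At day 0 each had 9 or fewer reads. The co-receptors Tgfbr3 (-2.13 [-2.33 to -1.92]) and Eng (-1.76 [-1.92 to -1.60]) were lower. Against Nons, 0 of the 14 differed by 2-fold in either hairpin library, with medians of 0.064 and 0.054. Of 8 partners of fibronectin and vimentin, 5 were at least 2-fold higher in Nons than at day 0 and 0 lower. Among them were Itga5, the integrin chain of the fibronectin receptor (1.93 [1.79 to 2.07]), and the intermediate filament genes Des (3.79 [3.25 to 4.39]) and Nes (3.12 [3.02 to 3.22]), unlike Fn1 and Vim. None of these 8 differed from Nons by 2-fold. The 5 hairpins of the miR-200 family were not among the listed genes and were not analysed here.

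Marker lists of cell types gave the setting of these values. Summed over 10 pluripotency genes, expression came to 4625 CPM on day 0, against 1097, 862 and 1131 CPM for Nons and the hairpins Smarca4.4 and Smarca4.6. Of them 9 were at least 2-fold lower in Nons than at day 0, and Pou5f1, at a log2 CPM of 9.50 and 9.84, was not. The 5 epithelial markers, all of them also in the list of epithelial products above, summed to 28.8 CPM at day 0. At day 6 they summed to 2196, 2170 and 1787 CPM. Mesoderm markers summed to 14.3 CPM at day 0 and to 30.9 to 35.1 CPM at day 6, neural markers to 169 and to 441 to 481 CPM, endoderm markers to 9.79 and to 27.0 to 33.4 CPM, and trophectoderm markers to 92.5 and to 30.4 to 56.6 CPM. Endothelial markers, which share Pecam1 with naive mESCs, summed to 236 CPM at day 0 and to 11.2 to 16.6 CPM at day 6. The neural sum at day 6 rested mainly on Nes, higher in Nons than at day 0 by 3.12. Pax6 (-0.85), Tubb3 (-0.94) and Sox1 (-2.04) were lower in Nons, and Neurog2 had 0 reads at day 0 and 5 in Nons. The endoderm sum at day 6 rested mainly on Dab2 (3.59), with Gata4 (1.29) also higher. Gata6 (-2.54) and Sox7 (-2.30) were lower, and the intervals of Sox17 and Foxa2 held 0. The sums also hide single markers that differed between the day 6 libraries. T and Mixl1, transcription factors of the primitive streak, had 18 and 13 reads in Nons and 91 and 42 in Smarca4.6, higher by 2.66 [1.92 to 3.48] and 2.02 [1.09 to 3.04], while the mesoderm sum rested mainly on Eomes, with 1552 reads in Nons. In Smarca4.4 T differed by -0.63 [-1.81 to 0.51] and Mixl1 by 0.96 [-0.06 to 2.04]. Sox1, a neural factor, was higher than Nons by 3.92 [2.95 to 5.08] with Smarca4.4 and by 2.06 [0.95 to 3.32] with Smarca4.6, from 9 reads in Nons, and Hand1, counted here with trophectoderm, by 1.59 [1.40 to 1.79] and 0.77 [0.55 to 0.99]. Mixl1 and Sox1 lay below the filter, and so did further markers that differed from Nons by over 2-fold with an interval without 0. Myh11 and Hba-a1 were lower with Smarca4.4. Cdx2 and Cdh5 were higher with Smarca4.6, and Sox7 was higher with both hairpins. Snai1, Vim and Cdh2 were also higher than Nons with both hairpins. Blood markers were below 1 CPM in each library and Ptprc, which defines blood cells, had 0 reads. The part of these shifts in the members' values was not tested.

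The genes with the most similar pattern over the 4 libraries, by Euclidean distance between log2 CPM profiles after each gene's own mean was removed, were found for both main cadherins. For Cdh1 they were Vcl (0.053), which encodes the adhesion protein vinculin, Elovl7 (0.063) and Ogfr (0.064). Vcl was at 7.37 log2 CPM on day 0 and at 9.02, 8.9996 and 8.93 for Nons and the hairpins Smarca4.4 and Smarca4.6. For Cdh2 they were Top3a (0.061), which encodes a DNA topoisomerase, Apip (0.090) and Alms1 (0.10). With 4 values for each gene, such likeness describes these libraries only.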

How the data were processed

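The authors prepared TruSeq libraries, sequenced paired-end reads, trimmed them with trim_galore and aligned them with hisat2 or tophat to mm10 with positions that differ between FVB and CAST masked. They quantified genes in SeqMonk and deposited log2 CPM (log2 of RPM) values with both alleles combined. The strand setting is not given in the sources used here.

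Reads were recovered from the deposited log2 values, since back-transformed values were whole multiples of 1 step (100% of values up to 1000 reads, tolerance 0.01 reads); a gene without reads carries 0.9 of a step. Totals were 18599402, 45759793, 47143727 and 36495582 reads for day 0, Nons, Smarca4.4 and Smarca4.6. Differences of deposited values have exact 95% intervals of the read split. Genes with a mean log2 CPM of at least 0 (13264) were kept, and differences of at least 2-fold counted. Levels per kb use the union of exons of protein-coding transcripts in GENCODE M21. The members and gene lists were chosen with earlier results of these data known. Genes named by rule are all members, Smarca4, overlapping genes and the 3 nearest patterns of Cdh1 and Cdh2. Also named by it are genes past 2-fold with both hairpins. Per list, it takes up to 3 largest differences each way from day 0 to Nons among genes past 2-fold. Pou5f1, Ptprc, levels of Cdh3 and Cdh4, Cdh8, Cdh11 and the Y-linked genes were named after their values were seen. So were the single markers T, Mixl1, Eomes, Sox1, Hand1, Sox7, Cdx2, Cdh5, Myh11 and Hba-a1. The same holds for Pax6, Tubb3, Neurog2, Dab2, Gata4, Gata6, Sox17 and Foxa2. Some items that this rule selects are not reported here. Alternatives were centring on the median of kept genes, a pseudocount of 1 CPM, the absence of any filter, a stricter one (mean of at least 3) and the longest transcript as length. The computations were tested on simulated reads. Software was matplotlib 3.10.9, pandas 2.3.3, scipy 1.17.1 and numpy 2.4.6 under Python 3.11.15.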

Additional observations from a re-analysis of the deposited data

How the results depend on the processing

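No paired analysis was possible because the groups compared hold a single library each, all with the same number; for the same reason no library could be left out. Counts of members at least 2-fold different were 6 from day 0 to Nons and 1 each for Smarca4.4, Smarca4.6 and both hairpins. Beside them, 31.9%, 1.19%, 1.82% and 0.513% of all kept genes differed as far. The stricter filter, which 4 members passed and Zeb1 did not, gave 3, 0, 0 and 0. Of all genes it kept, 23.2%, 0.187%, 0.395% and 0.0312% differed as far, in the same order. No filter gave 2 for Smarca4.4 and 2 for Smarca4.6, through Snai2 with at most 10 reads. Without a filter, 8.72% and 8.82% of all listed genes differed as far. A pseudocount of 1 CPM gave 0, 0 and 0 for Smarca4.4, Smarca4.6 and both hairpins, beside 0.332%, 0.573% and 0.113% of all kept genes. Centring gave 0 for Smarca4.6 and 0 for both hairpins, beside 1.79% and 0.452%. Zeb1 then stood at 0.94 in Smarca4.6, since its difference lay at the 2-fold limit. With a pseudocount of 1 CPM the log2 ratio of Cdh2 to Cdh1 was -7.48 for Nons, -7.22 with Smarca4.4 and -6.87 with Smarca4.6, in the same order as without it. The longest transcript as length, chosen after seeing the data, left the per-kb ratio inside its interval in all 4 libraries. Of 60 alternative values of single members, 52 stayed inside their counting interval and 8 moved outside; under centring 2 uncalled values changed sign, Cdh1 (-0.029) and Zeb2 (-0.020) in Smarca4.4. Of 93 list medians 6 changed sign. From day 0 to Nons these were the TGF-beta list (-0.40 under the stricter filter) and the epithelial regulators (0.96 without a filter). The mesenchymal products changed sign in Smarca4.4 (-0.030 under the stricter filter and -0.027 under centring), as did the TGF-beta list (-0.0093 under centring) and the classical cadherins (0.25 without a filter) in Smarca4.6. Depth limits Snai2 and Zeb2 most, and Zeb1 and Snai1 at day 6, where 40 to 110 reads stand behind a value. Causes were not tested where none is given.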
